A study of Mus musculus with 6 samples.

Results

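The genes described here encode the route from glucose uptake to lactate export, together with the enzymes that build and break down glycogen and a small side branch to 2,3-bisphosphoglycerate. They were chosen by symbol, and 31 symbols were matched to the 57010 identifiers of a table of RNA sequencing counts. The cells were CT26, a mouse colon carcinoma line, with either a control guide (sgControl) or one aimed at Cdk10 (sgCdk10), which encodes a cyclin-dependent kinase. Each group held 3 libraries of total RNA, and no other treatment, time point or allele is named in the labels. The labels do not say whether the guided cells were a pool or 1 clone, nor whether replicate libraries stem from different cultures. The p-values therefore reflect only library-to-library spread, which may be technical.

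Glycolysis splits glucose into pyruvate and yields ATP and NADH, and lactate dehydrogenase regenerates NAD+ by turning pyruvate into lactate. Most steps can be run by several isozymes encoded by separate genes, and phosphofructokinase, hexokinase and pyruvate kinase are the classical points of control. Tumour cells are known for high glucose uptake and lactate release even with oxygen present. Glycogen is a glucose store that many cultured cells build from glucose-6-phosphate through glucose-1-phosphate and UDP-glucose.

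Levels are given as CPM, which are counts scaled to a common library total with TMM factors, and as CPM per kilobase (kb) of merged exon length where genes are compared with each other. A gene was called when edgeR's quasi-likelihood test gave a Benjamini-Hochberg adjusted p under 0.05 over all genes tested. Log2 fold changes are positive where sgCdk10 was higher. Cdk10 itself was at 20.3 ± 1.05 CPM in sgControl and 11.5 ± 1.24 CPM in sgCdk10 (SD, n = 3), with a log2 fold change of -0.82 (SE 0.08; adjusted p = 8.42e-09, edgeR). Library totals ran from 17532202 to 19258309 counts. The members held between 1.53 and 1.74% of the counts of a library, and Pkm alone held 28.4 to 31.2% of the members' counts.

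Of the 31 members, 28 had counts and all 28 passed the filter on low counts. The remaining 3, Slc2a3, Ldhb and Pygl, had 0 counts in each of the 6 libraries, where 3 counts, the limit that a count of 0 allows, correspond to 0.156 to 0.171 CPM. This limit covers counting error only. Of the 28, 22 were called (42.5% of all 13442 genes tested were). In sgCdk10 19 rose and 3 fell, where 22.1% of all genes tested were called higher and 20.4% lower. The median over the 28 was 1.18-fold, against 0.998-fold over all genes tested. The rise was at least 1.5-fold in 5 members (Slc2a1, Hk2, Pfkp, Eno2 and Slc16a3), where 3.53% of all genes tested passed that line, and 0 members fell by as much, against 2.27% of all genes. The log2 fold changes of the 28 ran from -0.26 to 0.89. In bulk RNA, a change in the share of cells that express a gene and a change in RNA per cell cannot be told apart.

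**Figure D1:**
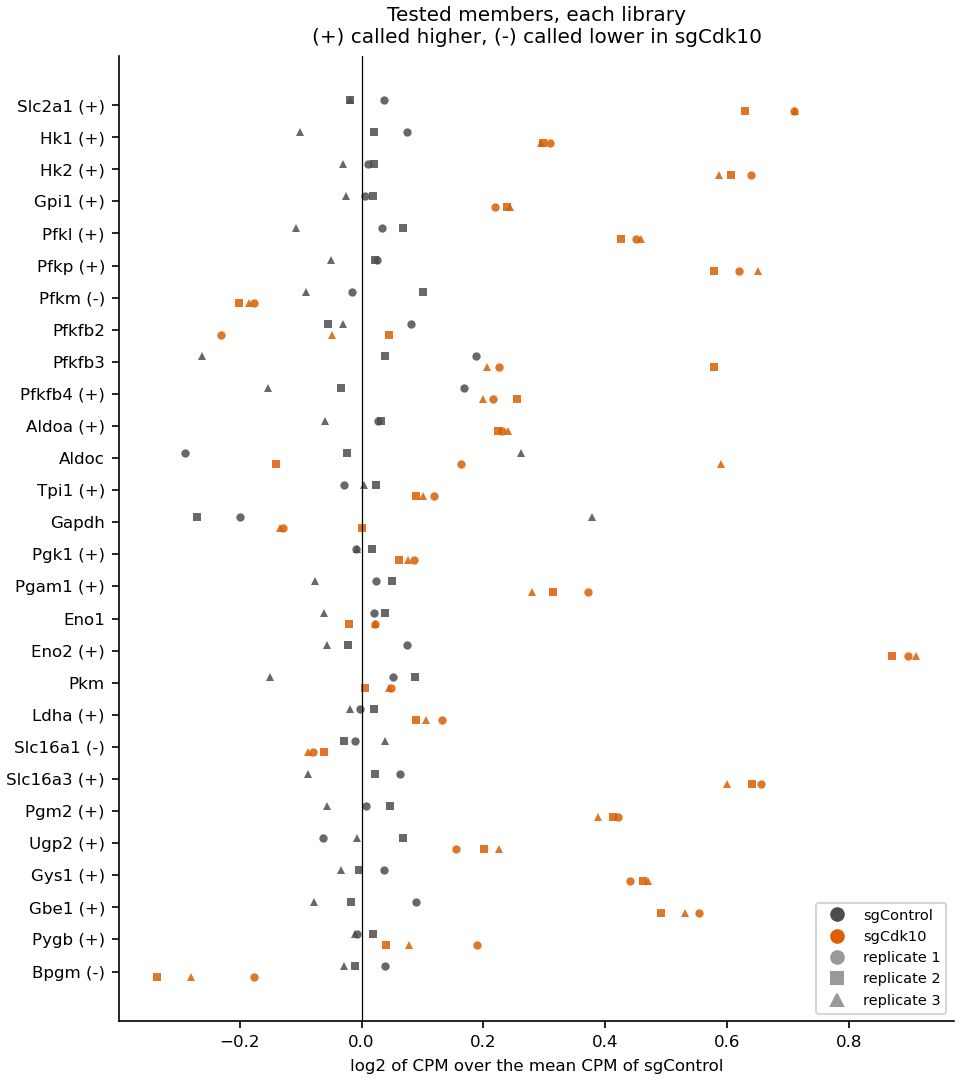
Each point is 1 library, placed by the log2 of its CPM over the mean CPM of sgControl, for the 28 tested members in pathway order. Grey marks sgControl, orange marks sgCdk10, and the shape gives the replicate number. Eno2, Slc2a1, Slc16a3, Pfkp and Hk2 lie farthest to the right, and the Gapdh point of sgControl replicate 3 stands apart from the other 2 of its group.

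Of the glucose carrier genes among the members, Slc2a1, the gene of the widely expressed carrier GLUT1, had counts and the neuronal type carrier gene Slc2a3 was at 0. Slc2a1 (chromosome 4, 119108711 to 119137983, plus strand, GRCm38, 12 merged exons) had 150, 144 and 144 CPM in the sgControl libraries and 238, 225 and 239 CPM in the sgCdk10 libraries. The groups did not overlap, as in 26.6% of all genes tested with sgCdk10 above. The log2 fold change was 0.68 (SE 0.03; adjusted p = 1.55e-14, edgeR). Both hexokinases, which trap glucose as glucose-6-phosphate, rose as well. Hk2, the isozyme typical of muscle and of many tumours, had 97.7, 98.3 and 94.9 CPM in sgControl and 151, 148 and 146 CPM in sgCdk10. The log2 difference was 0.61 (SE 0.03; adjusted p = 2.08e-13, edgeR). Hk1, the housekeeping isozyme, went from 207 ± 12.8 to 255 ± 1.38 CPM (SD, n = 3), which is 0.30 on the log2 scale (SE 0.04; adjusted p = 5.24e-07, edgeR). Gpi1, which converts glucose-6-phosphate to fructose-6-phosphate, rose by 0.23 on the log2 scale, from 803 ± 12.7 to 944 ± 8.74 CPM.

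The 3 phosphofructokinase genes moved in different directions. Their product commits fructose-6-phosphate to glycolysis as a tetramer whose subunits can mix. Pfkl, the liver type subunit, had 214, 219 and 194 CPM in sgControl and 285, 280 and 287 CPM in sgCdk10. Pfkp, the platelet type, had 47.2, 47.1 and 44.8 CPM against 71.2, 69.2 and 72.8 CPM. The groups were separate for both, with log2 fold changes of 0.45 for Pfkl (SE 0.04; adjusted p = 6.52e-09, edgeR) and 0.62 for Pfkp (SE 0.04; adjusted p = 2.98e-11, edgeR). Pfkm, the muscle type, fell from 82.7, 89.7 and 78.5 CPM to 74.0, 72.7 and 73.6 CPM, also without overlap, as in 24.8% of all genes tested with sgCdk10 below. Its log2 fold change was -0.19 (SE 0.04; adjusted p = 0.00104, edgeR). Exons of Pfkm overlap those of Senp1, and exons of Pfkp those of Pitrm1, on the opposite strand. The strand setting of the counting is not given in the sources used here, so the counts of both are less certain.

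Fructose-2,6-bisphosphate, the strongest activator of phosphofructokinase, is made and removed by the bifunctional enzymes of the Pfkfb genes, which were low in these cells. Pfkfb4 went from 12.3 ± 1.39 to 14.3 ± 0.283 CPM (SD, n = 3), with a log2 fold change of 0.22 (SE 0.08; adjusted p = 0.0342, edgeR). DESeq2 did not call it (adjusted p = 0.165), and neither did edgeR without sgControl replicate 2 (0.0913), without sgControl replicate 3 (0.158) or without any 1 of the sgCdk10 libraries (0.0707 to 0.108). For Pfkfb3, the inducible form, the sgControl libraries held 20, 18 and 15 counts and the sgCdk10 libraries 21, 26 and 22 (adjusted p = 0.313, edgeR). Pfkfb2 had 153, 139 and 145 counts against 126, 148 and 152 (adjusted p = 0.600, edgeR), and its exons overlap those of Yod1 on the opposite strand. The Pfkfb3 groups did not overlap and the Pfkfb2 groups did, and neither gene was called.

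From hexokinase to aldolase 8 members were tested, of which 6 rose and 1 fell (median 1.21-fold). From the triose phosphates to lactate 8 were tested, of which 5 rose and 0 fell (median 1.06-fold), with the Gapdh row taken without its copies. Over all genes tested 22.1% were called higher and 20.4% lower. Aldoa, the aldolase that splits the sugar, had 983, 987 and 926 CPM in sgControl and 1133, 1128 and 1141 CPM in sgCdk10, and rose by 0.23 on the log2 scale. A second row with the symbol Aldoa held 38 to 58 counts a library and is kept apart. Aldoc had 10 to 20 counts in all libraries (adjusted p = 0.581, edgeR). Tpi1, which interconverts the triose phosphates, had a log2 fold change of 0.10 (SE 0.03; adjusted p = 0.00179, edgeR), with 1068, 1107 and 1091 CPM in sgControl and 1183, 1158 and 1168 CPM in sgCdk10. Pgk1, the kinase of the earlier ATP-forming step, was called at a log2 fold change of 0.07 (adjusted p = 0.0163, edgeR), but leaving out sgControl replicate 1 (adjusted p = 0.0705), sgCdk10 replicate 1 (0.0854) or sgCdk10 replicate 3 (0.0538) ended the call. Pgam1, the mutase that follows, rose more than Aldoa, Tpi1 and Pgk1, from 481, 490 and 449 CPM to 612, 589 and 575 CPM. Its log2 fold change was 0.32 (SE 0.03; adjusted p = 4.6e-08, edgeR).

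The enolase genes parted. Eno2, the isozyme typical of neurons, had 91.9, 85.9 and 83.9 CPM in sgControl and 162, 160 and 164 CPM in sgCdk10. Its log2 fold change of 0.89 (SE 0.04; adjusted p = 6.99e-16, edgeR) was the largest of the 28 members, and the gene lies on chromosome 6 from 124760053 to 124769673 on the minus strand of GRCm38. Eno1, the widespread isozyme, had 2385, 2414 and 2252 CPM against 2386, 2316 and 2387 CPM, and the groups overlapped (log2 fold change 0.0076, SE 0.03; adjusted p = 0.850, edgeR). Pkm, the pyruvate kinase gene whose splice forms the counts do not separate, had 4990, 5117 and 4338 CPM in sgControl and 4976, 4836 and 4969 CPM in sgCdk10 (log2 fold change 0.033; adjusted p = 0.735, edgeR). Its lowest value belonged to sgControl replicate 3, and without that library the log2 fold change was -0.040 (adjusted p = 0.0833, edgeR). Exons of Gm49759, on the same strand, overlap those of Pkm.

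At the last step Ldha, which makes lactate from pyruvate, rose from 2234 ± 30.6 to 2410 ± 36.3 CPM (SD, n = 3), with a log2 difference of 0.11 (SE 0.02; adjusted p = 9.52e-04, edgeR). Its partner subunit gene Ldhb was at 0 in all 6 libraries. The lactate carriers differed in direction. Slc16a3, the gene of MCT4, a carrier suited to lactate export, had 73.1, 71.1 and 65.8 CPM in sgControl and 110, 109 and 106 CPM in sgCdk10. Its log2 fold change was 0.63 (SE 0.04; adjusted p = 3.35e-12, edgeR). Slc16a1, the gene of MCT1, which carries lactate either way, had 218, 215 and 226 CPM against 208, 210 and 207 CPM. The groups did not overlap, and the log2 fold change was -0.08 (SE 0.03; adjusted p = 0.0386, edgeR). The call of Slc16a1 was lost in DESeq2 (adjusted p = 0.0801), without a filter (0.0673), with the replicate block (0.0597), without sgControl replicate 1 (0.0577) and without any 1 of the sgCdk10 libraries (0.0751 to 0.126).

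The row of Gapdh, the gene of the dehydrogenase between Tpi1 and Pgk1, held a small part of the counts on Gapdh and its near-identical copies. In sgControl the row had 3241, 3084 and 4954 counts, against 3479, 3694 and 3686 in sgCdk10, between 8.83 and 13.7% of what was counted on Gapdh and its near-identical copies together. A copy is an annotated pseudogene, or the retrogene Eno1b, with at least 90% identity to a coding transcript of the member over at least 200 bases. For Gapdh 177 copies were found, and 107 of them had counts. The processed pseudogene Gm13394 (chromosome 2, 28933610 to 28934609, minus strand, GRCm38) alone drew 30115, 29513 and 26554 counts in the sgControl libraries and 31995, 27469 and 32203 in sgCdk10. Its 1000 bases align to the Gapdh transcript with 1 mismatch, A424C, counted from the first base of the longest open reading frame of that transcript. Reads of Gapdh placed on Gm13394 and transcription of Gm13394 itself cannot be told apart in these counts, and neither was tested. The stretch around the mismatch is shown with the differing base in capitals:
Gapdh: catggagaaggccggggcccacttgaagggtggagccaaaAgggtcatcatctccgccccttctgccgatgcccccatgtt
Gm13394: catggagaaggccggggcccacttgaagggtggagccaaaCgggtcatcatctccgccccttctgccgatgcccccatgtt

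The Gapdh row alone had a log2 fold change of -0.09 (adjusted p = 0.781, edgeR), and without sgControl replicate 3 it had 0.14 (adjusted p = 0.00184, edgeR). With the copies summed, an alternative added after seeing the data, Gapdh had 1997 ± 28.4 CPM in sgControl and 2002 ± 89.7 CPM in sgCdk10 (SD, n = 3; log2 fold change 0.0032; adjusted p = 0.941, edgeR). Eno1 was the only other member with more than 2% of its summed counts on copies. There the copies held 30.04%, mostly Eno1b and Gm4735, and the share of the Eno1 row stayed between 69.7 and 70.3% in all 6 libraries.

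**Figure D2:**
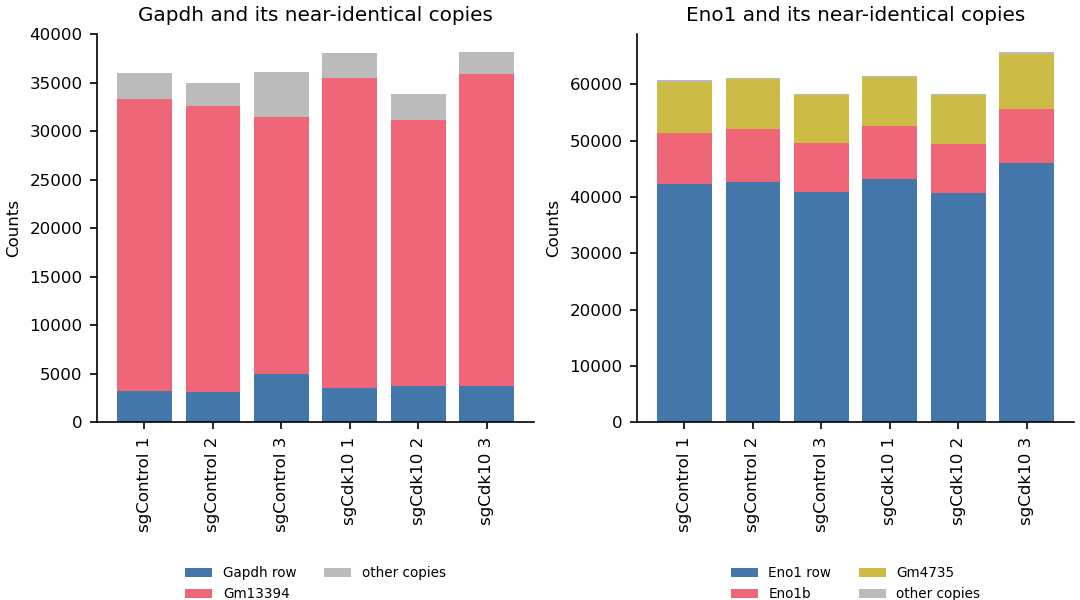
Stacked bars give, for each library, the counts of the Gapdh row and the Eno1 row (blue) and of their near-identical copies (other colours), on linear axes from 0. The Gapdh row is the small part of its bar in every library, and it is largest in sgControl replicate 3 with 4954 counts, while the Eno1 row holds about the same share throughout.

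All 5 tested members of glycogen metabolism rose (22.1% of all genes tested were called higher and 20.4% lower). Of 16 other glycogen genes tested, which are not members, 4 rose and 1 fell. Gys1, the glycogen synthase outside the liver, had 135, 131 and 128 CPM in sgControl and 178, 181 and 182 CPM in sgCdk10, without overlap. Its log2 fold change was 0.46 (SE 0.03; adjusted p = 1.97e-11, edgeR). Gbe1, the branching enzyme, had 51.9, 48.2 and 46.2 CPM against 71.6, 68.6 and 70.5 CPM, a log2 fold change of 0.53 (SE 0.05; adjusted p = 1.44e-09, edgeR). Ugp2, which makes UDP-glucose, had a smaller log2 fold change of 0.19 (SE 0.05; adjusted p = 0.00172, edgeR). Pgm2 rose by 0.41 on the log2 scale. The symbol Pgm2 has been used for more than 1 mouse gene, and the row is the one on chromosome 5, whose product acts on pentose phosphates as well as hexose phosphates. Pygb, the brain type phosphorylase that releases glucose-1-phosphate, had 89.9, 91.6 and 89.8 CPM against 103, 93.0 and 95.5 CPM. Its log2 fold change was 0.10 (adjusted p = 0.0332, edgeR), and the call was lost in DESeq2 (adjusted p = 0.127), limma-voom (0.0529), the correction for GC content and length (0.133) and without sgControl replicate 1 (0.0783), sgCdk10 replicate 1 (0.275) or sgCdk10 replicate 3 (0.0520). The liver type phosphorylase Pygl was at 0. Exons of Gys1 overlap those of Ruvbl2 on the opposite strand, so its counts are less certain, as for Pfkm and Pfkp. Bpgm, which diverts a glycolytic intermediate to 2,3-bisphosphoglycerate, had the lowest log2 fold change of the members. It fell from 24.0, 23.2 and 22.9 CPM to 20.7, 18.5 and 19.3 CPM, by 0.26 on the log2 scale (SE 0.06; adjusted p = 0.00143, edgeR).

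Summed by step and ranked by level per kb in sgControl, pyruvate kinase came first at 963 ± 83.6 CPM per kb (SD, n = 3), followed by lactate dehydrogenase at 675 ± 9.25, phosphoglycerate kinase at 622 ± 6.67, enolase at 456 ± 16.6 and triosephosphate isomerase at 395 ± 7.14. With the longest transcript as the length, enolase ranked 3 and phosphoglycerate kinase 4. The Gapdh step ranked 11 on the Gapdh row alone, without its copies. Step totals hold members only, so the enolase step leaves out Eno3 and the Eno1 copies. Glucose uptake at 41.6 ± 0.952 and hexokinase at 40.5 ± 1.78 CPM per kb were neighbours whose values overlapped with this length, while with the longest transcript they were at 44.7 (rank 13) and 66.04 (rank 10). The Pfkfb members (Pfkfb2, Pfkfb3 and Pfkfb4) came last at 3.77 ± 0.355. The order by change was different. Glucose uptake led with a log2 difference of 0.68, followed by glycogen branching (0.53), glycogen synthase (0.46), hexokinase (0.43) and phosphoglucomutase (0.41). Phosphoglucomutase here is Pgm2 without the related Pgm1. Pyruvate kinase stood at 0.037. Hexokinase was at 0.39 with the longest transcript as the length, below phosphoglucomutase. The 7 members above 500 CPM in sgControl had log2 fold changes between 0.0076 and 0.23. Pgam1, just below that line at 473 CPM, had 0.32. Over the 28 members, Spearman's rho between the sgControl level per kb and the log2 fold change was -0.29 and Pearson's r on the log2 level was -0.19. Both are descriptions across genes measured in the same libraries. An exact permutation test (two-sided) of each of the 20 step totals cannot give a p below 0.10 with 3 libraries against 3. It gave 0.10 for 16 steps, and for phosphofructokinase, for example, an adjusted p of 0.125.

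**Figure D3:**
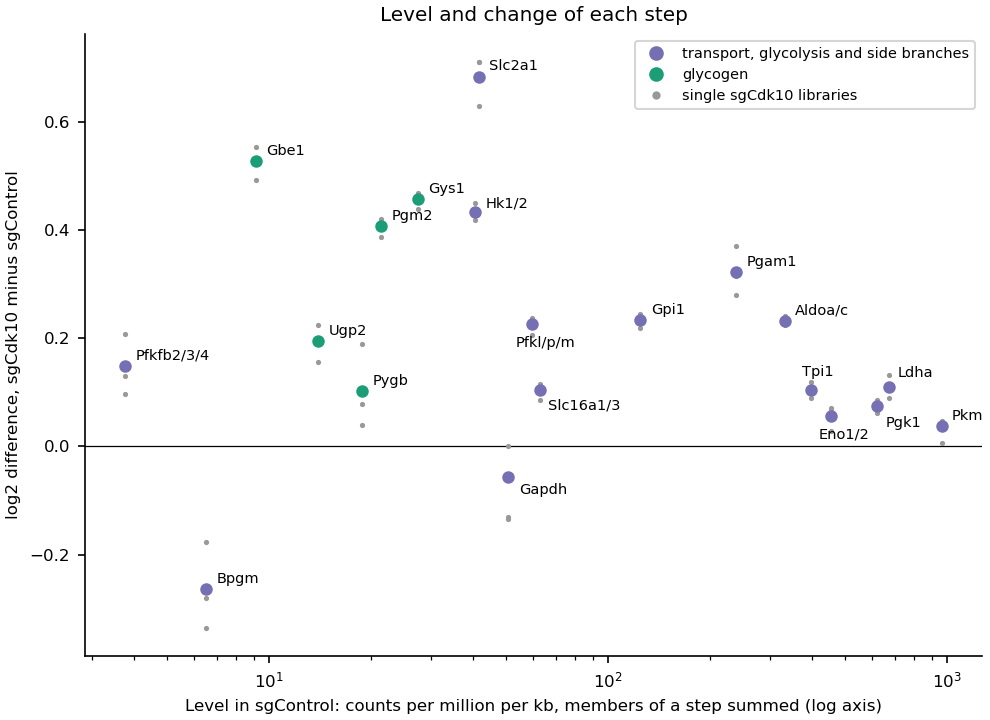
Each large point is 1 step, with its level in sgControl in CPM per kb on a log axis and its log2 difference between groups on the vertical axis. Small grey points are single sgCdk10 libraries against the sgControl mean. The abundant steps at the right (Pkm, Ldha, Pgk1) lie near 0, while Slc2a1, Gbe1 and Gys1 lie highest.

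Isozymes were also compared by their shares within families. Shares are of the summed level per kb of the family's members. The Slc16a3 share of the lactate carriers was 21.8, 21.6 and 19.5% in sgControl and 30.6, 30.2 and 29.9% in sgCdk10. The Hk2 share of the hexokinases was 39.0, 40.1 and 41.2% against 45.7, 45.3 and 45.0%. The shares did not overlap between the groups in either family. Among the phosphofructokinases Pfkm went from 41.9 ± 0.735 to 31.5 ± 0.163%, Pfkl from 52.3 ± 0.663 to 60.9 ± 0.0632% and Pfkp from 5.80 ± 0.213 to 7.59 ± 0.108% (SD, n = 3). Eno2 held 4.07 ± 0.155% of the summed Eno1 and Eno2 level in sgControl and 7.26 ± 0.0403% in sgCdk10. The Eno1 copies and Eno3, which is not a member, are not counted. Eno3 had a mean of 120 CPM in sgControl and 111 CPM in sgCdk10. Among the Pfkfb members Pfkfb4 went from 66.6 ± 1.37 to 70.4 ± 1.83% and Pfkfb2 from 29.9 ± 1.62 to 25.6 ± 1.59%. Pfkfb1, named after its values were seen, is not a member and is not counted. It had a mean of 7.28 CPM in sgControl and 6.81 CPM in sgCdk10. The 10 shares tested gave the smallest p the design allows, 0.10 by the exact permutation test (two-sided; adjusted p = 0.111), except Aldoc (p = 0.90). The shares depend on the gene lengths used: with the longest transcript the Hk2 share was 26.7% in sgControl and 31.02% in sgCdk10.

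**Figure D4:**
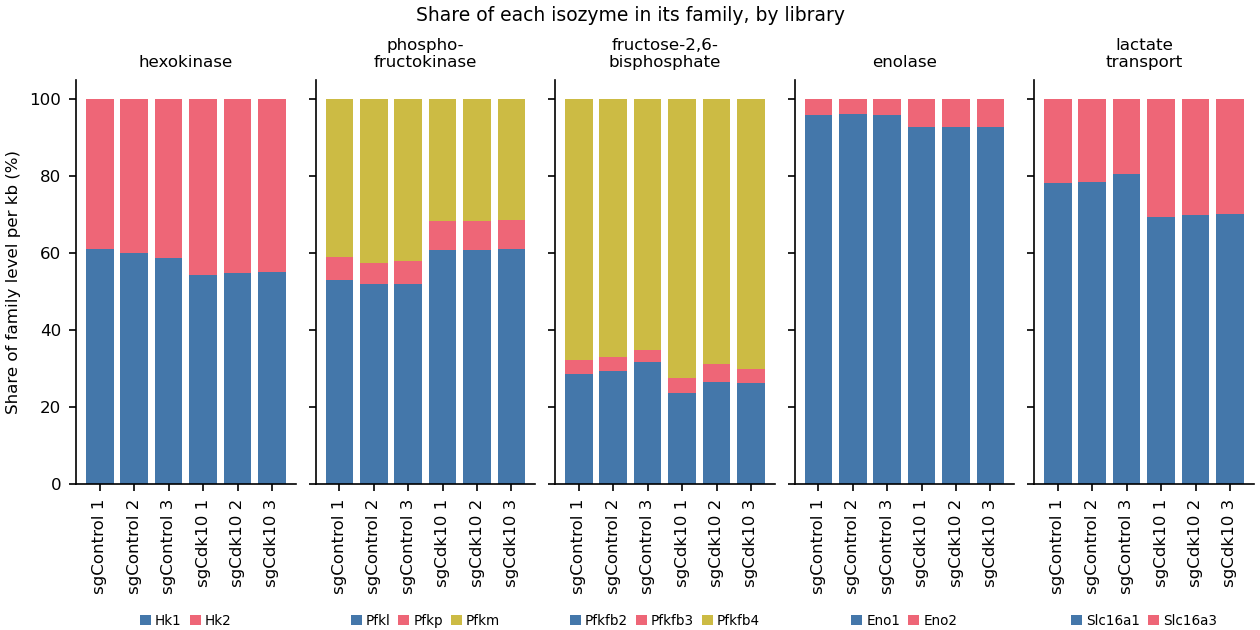
Stacked bars give the share of each isozyme in the summed level per kb of its family's members, in percent, for each of the 6 libraries. The Slc16a3, Hk2, Pfkl and Eno2 parts are larger in all 3 sgCdk10 libraries, and the Pfkm part is smaller.

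Because several members rose together, their promoters were searched for ACGTG and for GCGTG on both strands, the letters of the core that hypoxia-inducible factors are known to bind. The windows ran from 250 bases before to 50 bases after the RefSeq transcription start nearest to the gene's 5′ end in the annotation (GRCm38.p6), and 30 of the 31 members had one. ACGTG was in 15 of the 30 windows, in 19.6% of all 32851 windows and in 25.7% of the 11802 windows of genes tested. GCGTG was in 15 of the 30, in 32.4% of all windows and in 50.7% of those of genes tested. Members entered with 1 window each, while these percentages count every listed start of a gene, so they are not measured alike. The letters CACGTG hold ACGTG on both strands. ACGTG was present in 9 of the 19 windows of members that rose and in 5 of the 9 windows of tested members that fell or were not called. Eno2, Pfkp, Gbe1 and Gys1 had no ACGTG in this window, while Ldha and Pgk1, with log2 fold changes of 0.11 and 0.07, had 5 and 2 matches, where 4 of the 5 in Ldha belong to CACGTG and so lie on both strands of the same letters. Hk2 and Slc16a3 had 2 each and Slc2a1 had 1. Pfkm and Slc16a1, which were called lower, had 3 each, some of them within CACGTG. The stretches around the matches are shown for 3 of the members with the largest rises and for Pgk1 and Ldha, with the matches in capitals:
Slc2a1 (chr4:119108697-119108726, plus strand): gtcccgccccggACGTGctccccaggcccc
Slc16a3 (chr11:120949034-120949063, plus strand): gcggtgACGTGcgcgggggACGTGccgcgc
Hk2 (chr6:82774489-82774518, minus strand): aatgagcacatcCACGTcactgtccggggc
Pgk1 (chrX:106186947-106186976, plus strand): aggACGTGacaaatggaagtagCACGTctc
Ldha (chr7:46845751-46845780, plus strand): gcctaCACGTGggttcccgCACGTccgctg
The Slc2a1 and Slc16a3 stretches each overlap 1 annotated exon, and those of Hk2 and Ldha hold only some of the matches of these genes. A match is a description of letters, and binding was not measured.

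Neighbouring pathways were described from lists of related genes. Among 28 other isozymes and carriers, 13 were tested, of which 2 rose and 3 fell (22.1% of all genes tested were called higher and 20.4% lower). Bsg, the chaperone of the lactate carriers, rose from 372 ± 12.0 to 462 ± 2.76 CPM (SD, n = 3), a log2 fold change of 0.31 (adjusted p = 2.26e-09, edgeR), and Eno1b was not called (0.799). The others called, named after their values were seen, were the sugar carrier genes Slc2a8 (0.39) and Slc2a6 (-0.92), the ADP-dependent glucokinase Adpgk (-0.29) and the muscle enolase Eno3 (-0.11). Of 24 other glycogen genes 16 were tested, with the calls given above, and the most abundant, the lysosomal glucosidase Gaa and the kinase Gsk3b, were not called (edgeR adjusted p = 0.488 and 0.0948). Those called include, named after their values were seen, Epm2a, the gene of the glycogen phosphatase laforin (1.20, from 17 to 30 counts to 54 to 58), Pgm1 (0.27), Pgm2l1 (0.22) and the muscle phosphorylase Pygm (-0.74). The medians of these lists were 0.992-fold and 1.02-fold.

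The neighbouring branches are given by counts, to be read against the 22.1% of all genes called higher and the 20.4% called lower. Of 10 pentose phosphate genes 2 rose and 4 fell (median 0.950-fold). Pgd, which makes NADPH, had a log2 fold change of -0.15 and Tkt, the transketolase, one of -0.16, both called. Of 10 genes of the NADH shuttles 1 rose and 5 fell (median 0.905-fold), among them Got2, a mitochondrial aminotransferase, which fell by 0.15, while Mdh2 was not called (adjusted p = 0.254, edgeR). Of 4 tested gluconeogenesis genes 1 rose and 1 fell (median 1.04-fold). Pck2, the mitochondrial enzyme that makes phosphoenolpyruvate, fell from 210 ± 11.2 to 124 ± 1.54 CPM (SD, n = 3), by 0.75 on the log2 scale, and Pcx, which carboxylates pyruvate, was not called (adjusted p = 0.203, edgeR). The 1 that rose, named after its value was seen, was the glucose-6-phosphate carrier Slc37a4 (0.37). Of 3 tested glucose-responsive regulators 2 rose and 0 fell (median 1.13-fold). Txnip, which restrains glucose uptake, rose from 38.6 ± 1.80 to 52.5 ± 2.52 CPM (log2 fold change 0.45; adjusted p = 1e-07, edgeR), and Mlxip, a glucose-sensing transcription factor, had a log2 fold change of 0.18.

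The carcinoma label was checked against epithelial and colon markers. Of 11 such markers 4 were tested, Krt18 had 404 to 440 counts in sgControl and 674 to 705 in sgCdk10, Krt8 had 4 to 12 counts a library and Epcam was at 0 in all libraries. Their summed level ran from 37.6 to 41.9 CPM in sgControl and from 59.2 to 60.1 CPM in sgCdk10, most of it Krt18 and Krt20. Of the 4 tested, Krt18 and Krt20 were called higher, with log2 fold changes of 0.65 and 0.51. Muc2, at 7 to 16 counts a library, was called lower (-0.93, adjusted p = 0.0305, edgeR), and Lgals4 was not called (adjusted p = 0.887, edgeR). Markers of the cells in which some isozymes are typical were low. The 9 leukocyte markers summed to 9.47 to 9.998 CPM in sgControl and 13.6 to 14.6 CPM in sgCdk10, most of it Cd68. Cd68 was called higher (log2 fold change 0.57; adjusted p = 5.23e-06, edgeR) and Cd74 was not called (adjusted p = 0.519, edgeR). Cd3e, Adgre1 and Nkg7 were at 0. The 4 endothelial markers summed to at most 1.13 CPM and the 6 erythroid markers to at most 0.853 CPM in a library. Of the 5 neuronal markers Rbfox3 and Snap25 were at 0. The sum ran from 12.8 to 14.1 CPM in sgControl and from 11.2 to 12.1 CPM in sgCdk10. Most of it was Tubb3, with a mean of 8.57 CPM in sgControl and 7.13 CPM in sgCdk10, which was called lower (adjusted p = 0.0409, edgeR). Syt1 and Gap43 were not called (adjusted p = 0.937 and 0.6, edgeR). Of the 5 muscle markers Myh1 and Myh4 were at 0, and the sum was at most 0.276 CPM except in sgControl replicate 3, where Acta1 alone had 693 counts against 2 to 5 in the other libraries. The part of these markers in the members' changes was not tested.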

How the data were processed

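The authors deposited 1 table of raw counts per gene for 6 libraries, with Ensembl identifiers and no normalization, per the file headers. Tools listed without roles, per the submitters' processing notes, are DESeq2 1.40.2, featureCounts 2.0.3 and HISAT2 2.2.1, with the build mm10. Settings, annotation release and strand were not given in the sources used here, so reads of overlapping or near-identical genes may be placed differently than by other settings. Groups and replicate numbers come from the titles. Symbols and merged exon lengths are from GENCODE M21 (GRCm38), which matched 52081 of 57010 identifiers.

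Genes were kept by filterByExpr (minimum count 10, total 15), scaled by TMM and tested with edgeR 4.0.16 (quasi-likelihood, robust, group as the only term, Benjamini-Hochberg over 13442 genes, threshold 0.05). The fit was also run on simulated counts with known fold changes, in which far fewer genes changed than were called here. That run therefore does not show how the fit performs at the share of calls seen here. Each SE is the absolute log2 fold change over the square root of F. Near-identical copies were found with BLAST 2.17.0. Step totals and shares were compared with exact permutation tests. Alternatives were DESeq2-type size factors, DESeq2 1.42.0, limma-voom (limma 3.58.1), no filter, at least 1 CPM in every library of a group, a loess correction (span 0.5) for GC content and transcript length, the replicate block, leaving out each library, and summed copies. All members are named, with Cdk10 and the 2 most abundant tested genes of each related list by rule, and others from those lists are marked in the text as chosen after their values were seen. The members, lists and tests were chosen with earlier results of these data known. The values of 1 gene in the related lists are not reported here.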

Additional observations from a re-analysis of the deposited data

How the results depend on the processing

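The count of members called higher was 19, and 16 to 19 over the alternatives run, lowest without sgCdk10 replicate 1 or 3; the count called lower was 3, and 2 or 3. DESeq2 gave 17 and 2. Without sgControl replicate 3 the count of higher calls was again 19, with Gapdh in and Pfkfb4 out. Over all genes 5717 were called, with 4179 in DESeq2 and 4791 to 6056 with a library left out. Of 391 values of single members under an alternative, 363 kept their direction and side of the threshold, 22 were no longer called and 6 changed sign. The sign changes were Gapdh without sgControl replicate 3 (0.14) and with copies summed (0.0032), Eno1 with the GC and length correction (-0.012) and without sgControl replicate 3 (-0.026), and Pkm under the same settings (-0.0038 and -0.040). The summed pyruvate kinase step changed sign without sgControl replicate 3 as well (-0.036). With 1 library left out at a time, log2 fold changes ran from -0.21 to 0.14 for Gapdh, from -0.026 to 0.028 for Eno1 and from -0.040 to 0.079 for Pkm, and the pyruvate kinase step from -0.036 to 0.083. For Eno1 and Pkm, and for Gapdh with all libraries, no call was made. The losses touched Pfkfb4, Pgk1, Slc16a1 and Pygb; the cause was not tested. With the longest transcript as the length, the rise in the Hk2 share was 4.37 instead of 5.21 percentage points, that of Pfkp 1.53 instead of 1.79 and that of Eno2 2.11 instead of 3.20. The numbers were not taken to pair the libraries, because the labels do not say that they mark a shared culture or day. After subtracting group means, libraries with the same number had correlations of 0.025, -0.057 and -0.096. The replicate block gave 5481 calls over all genes, with 19 members higher and 2 lower, and ended only the call of Slc16a1 among the members. For Pfkfb3 and Aldoc, with at most 26 counts a library, the depth limits what could be detected.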

Other observations

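Several rows of genes with near-identical copies had their highest count in sgControl replicate 3. Gm5559, a copy of Gapdh, had 916 and 859 counts in sgControl replicates 1 and 2, 1461 in replicate 3 and 948 to 999 in sgCdk10. Gm12070, another copy of Gapdh, had 121, 125 and 501 counts in sgControl and 122 to 176 in sgCdk10, and Pgk1-rs7, a copy of Pgk1, had 231, 239 and 374 against 249 to 254. The row of Gm13394, by contrast, had its lowest count in that library. These rows were chosen after their values were seen.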
